A study of Mus musculus with 16 samples.

Results

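Mlip, Lrrfip1, Rtn4, Dst, Immt, Fnbp1, Git2, Nexn and Lmo7 are 9 genes known as targets of the cardiac splicing factor RBM20 that lie mostly outside the group of sarcomere and calcium-handling targets. They were taken by name from a gene count table of 56953 genes and from every event that the deposited splicing tables list under their symbols. All 9 genes passed the filter on low counts, as did 18662 genes in all. The 3 splicing tables held 286 distinct events of the 9 genes, told apart by type and listed coordinates, of which 98 belonged to Mlip, 46 to Lrrfip1, 35 to Nexn, 26 to Dst, 25 to Immt, 24 to Lmo7, 15 to Fnbp1, 12 to Git2 and 5 to Rtn4.

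RNA came from the left ventricles of 16 Bl6J mice of both sexes, in 4 groups of 4 mice. They were wild type (WT) or carried on both alleles the RBM20 mutation P635L, which replaces a proline by a leucine. At an age of 4 weeks every mouse received 1e12 viral genomes of AAV9 by tail vein injection. The virus delivered either Tnpo3 cDNA, coding for a receptor that imports proteins into the nucleus, or a control construct (Ctr) with Cre recombinase and green fluorescent protein under a CAG promoter, so that both control groups received a Cre virus. Hearts were collected 12 weeks after injection, at 16 weeks of age. The groups are called WT_Ctr, WT_Tnpo3, P635L_Ctr and P635L_Tnpo3 below. The sex of each mouse is not given in the labels.

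RBM20 binds introns next to regulated exons at sites built around the RNA letters UCUU and keeps many of those exons out of the mature transcript of the cardiomyocyte. Mutations in its stretch rich in arginine and serine, where P635L lies, disturb its entry into the nucleus and cause dilated cardiomyopathy. The inclusion level of an exon is the share of transcripts, from 0 to 1, that hold the exon, estimated here from reads across its junctions with 1 pair of flanking exons. The same exon can be listed with several such pairs, and a level then describes only the transcripts that use that pair.

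Library totals ran from 28493249 to 85922669 counts. The gene ENSMUSG00000119584 held 19.96%, 21.2% and 22.7% of the counts in WT_Ctr replicates 2 and 4 and WT_Tnpo3 replicate 4, and at most 5.30% elsewhere. Xist was high in 3 WT libraries, WT_Ctr replicate 4 and WT_Tnpo3 replicates 2 and 4, and in 0 of 8 P635L libraries. Xist level and genotype are thus partly confounded in comparisons of P635L with WT groups. Tnpo3 was at 41.6 to 49.4 CPM (normalised counts scaled to library size) over all libraries with the control virus and at 231 to 723 CPM over all with the Tnpo3 virus. Rbm20 differed by -0.06 on the log2 scale between P635L_Ctr and WT_Ctr (SE 0.20, edgeR adjusted p = 0.878). The summed level of 8 cardiomyocyte markers was 71754 to 85395 CPM in WT_Ctr and 52948 to 56774 CPM in P635L_Ctr, where 3 of the 8 were lower.

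Most exons of at most 300 bases on which the splicing results turn are shown here, 5′ to 3′ on the strand of the gene. Every match to TCTT, the DNA letters of UCUU, is in capitals. Coordinates are those of the deposited tables, 1-based, and the build is GRCm39 per the submitters' processing notes. The sequences are from GENCODE M21 transcripts (GRCm38), in which 14 of 14 regulated exons considered here matched a single exon of the same gene by the lengths of the exon, of both flanking exons and of both introns.
Mlip, chr9:77124259-77124330, minus strand, 72 bases: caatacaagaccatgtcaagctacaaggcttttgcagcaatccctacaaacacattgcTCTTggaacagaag
Mlip, chr9:77088634-77088678, minus strand, 45 bases: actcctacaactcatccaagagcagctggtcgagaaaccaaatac
Mlip, chr9:77081241-77081285, minus strand, 45 bases: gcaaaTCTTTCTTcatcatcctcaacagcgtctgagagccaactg
Mlip, chr9:77097606-77097665, minus strand, 60 bases: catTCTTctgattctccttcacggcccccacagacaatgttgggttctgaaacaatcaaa
Lrrfip1, chr1:91021282-91021359, plus strand, 78 bases: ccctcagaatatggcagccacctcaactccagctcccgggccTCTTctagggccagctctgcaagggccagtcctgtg
Rtn4, chr11:29655535-29655591, plus strand, 57 bases: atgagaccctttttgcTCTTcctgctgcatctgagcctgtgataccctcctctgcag
Nexn, chr3:151953817-151954005, minus strand, 189 bases: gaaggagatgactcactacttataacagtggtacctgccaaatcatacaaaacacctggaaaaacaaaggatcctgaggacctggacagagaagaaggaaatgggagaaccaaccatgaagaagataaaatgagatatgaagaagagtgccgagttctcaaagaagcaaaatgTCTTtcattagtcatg
Lmo7, chr14:102153124-102153180, plus strand, 57 bases: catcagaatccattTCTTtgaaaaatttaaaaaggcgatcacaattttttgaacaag

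All 14 exons are wholly coding in M21. Of the 10 that are at most 300 bases long, 7 hold TCTT on the strand of the transcript. The Lrrfip1 exons at chr1:91014781-91014846 (66 bases) and chr1:91016356-91016433 (78 bases), which are not shown, hold 0 matches. Among all internal coding exons of the same length, TCTT was found in 12.8% of those of 45 bases, 19.3% of 57 bases and 23.1% of 60 bases. It was found in 24.1% of those of 66 bases, 24.1% of 72 bases, 27.5% of 78 bases and 49.5% of 189 bases. On the other strand (AAGA) the letters occur 6 times in the Nexn exon of 189 bases. A match is a run of letters and not a binding site, and the introns, where RBM20 binds, were not read here.

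In mutant hearts 4 of the 9 genes changed in transcript level. Between P635L_Ctr and WT_Ctr, Rtn4 and Lrrfip1 rose and Mlip and Lmo7 fell (edgeR adjusted p under 0.05), against a background of 14.2% of all genes tested (7.07% higher and 7.14% lower). With 2 genes up and 2 down, the median log2 fold change of the 9 genes was -0.16, and that of all genes was -0.05. With the Tnpo3 virus in mutant hearts Rtn4 fell, as the 1 gene of the 9 to change between P635L_Tnpo3 and P635L_Ctr (background 3.88%). Between P635L_Tnpo3 and WT_Ctr the 1 gene to change was Mlip, which was lower (background 3.07%). In WT hearts the Tnpo3 virus changed 0 of the 9, with 0 at an unadjusted p under 0.05 in edgeR and 0 called by DESeq2 (background 0.00536%, which is the 1 gene Tnpo3).

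**Figure D1:**
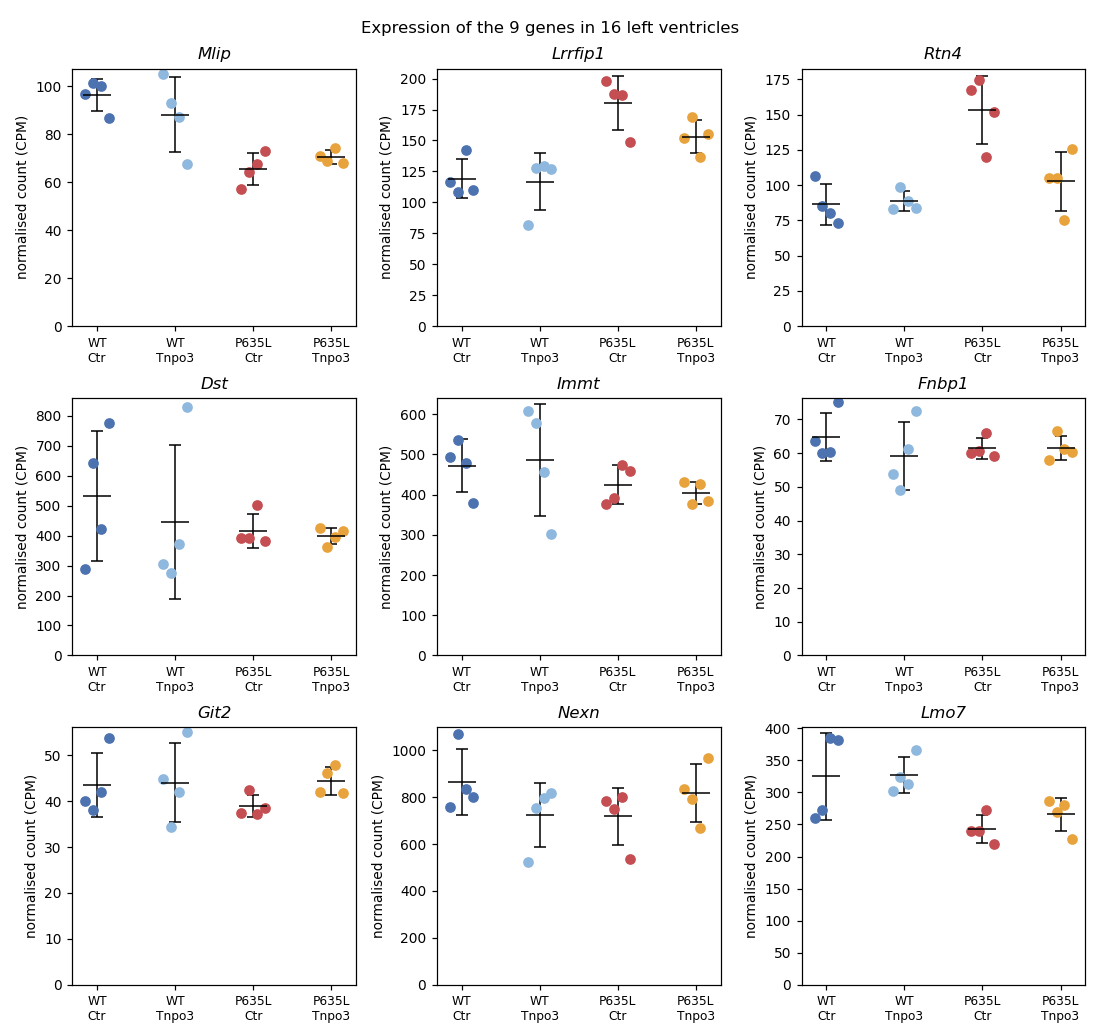
Normalised count of each gene in CPM (y axis, from 0) in the 4 mice of each group (points), with the mean and SD (black). Rtn4 and Lrrfip1 are highest in P635L_Ctr, Mlip is lower in both P635L groups than in WT_Ctr, and Dst is spread more widely in the WT groups than in the P635L groups.

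Compared per kilobase of exon, Nexn was the most abundant of the 9 genes in WT_Ctr at 226 ± 36.7 RPKM (SD, n = 4). Immt followed at 41.6 ± 5.84, Lmo7 at 27.2 ± 5.67 and Lrrfip1 at 18.4 ± 2.47 RPKM. Dst at 12.8 ± 5.24, Rtn4 at 12.3 ± 2.05 and Mlip at 10.8 ± 0.739 RPKM overlapped, with ranges over the 4 libraries of 6.93 to 18.6, 10.5 to 15.2 and 9.75 to 11.4 RPKM. Fnbp1 at 6.46 ± 0.705 and Git2 at 2.50 ± 0.403 RPKM were the least abundant.

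Rtn4 (ENSMUSG00000020458, chr11:29642947-29694331, plus strand) encodes reticulon 4, also called Nogo, a membrane protein that shapes the tubules of the endoplasmic reticulum. Its normalised count was 107, 85.1, 80.4 and 73.2 CPM in the 4 WT_Ctr mice and 167, 174, 120 and 152 CPM in P635L_Ctr. All 4 mutant hearts lay above all 4 WT_Ctr hearts. In P635L_Tnpo3 it was 105, 105, 75.3 and 126 CPM, so that 3 of the 4 lay below every P635L_Ctr heart and the fourth overlapped them. WT_Tnpo3 hearts held 83.2 to 98.6 CPM, within the range of WT_Ctr.

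For Rtn4 the log2 fold change was 0.83 (SE 0.15, edgeR adjusted p = 0.00126) in P635L_Ctr against WT_Ctr, and it passed in all 16 alternatives run (adjusted p 5.26e-06 to 0.0194). With the Tnpo3 virus the mutant level fell by 0.58 on the log2 scale (SE 0.15, edgeR adjusted p = 0.0425). This call was lost in 6 of 16 alternatives, each of which left out 1 mouse: P635L_Ctr replicate 1, 2 or 4 (log2 fold changes -0.52, -0.50 and -0.58), or P635L_Tnpo3 replicate 1, 2 or 3 (-0.59, -0.58 and -0.46), with adjusted p up to 0.151. P635L_Tnpo3 and WT_Ctr differed by 0.25 (SE 0.15, edgeR adjusted p = 0.410). Both mutant comparisons share the P635L_Ctr libraries. The virus effect differed between genotypes by -0.62 (interaction, SE 0.22, edgeR adjusted p = 0.243), which did not pass. The interaction passed for 0 of the 9 genes by edgeR (background 0.504%) and for 0 by DESeq2. It reached an unadjusted edgeR p under 0.05 for Rtn4 only.

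Fibroblast markers moved with Rtn4. Of 6 listed (Col1a1, Col1a2, Dcn, Pdgfra, Lum and Postn), 6 were higher in P635L_Ctr than in WT_Ctr and 5 were lower in P635L_Tnpo3 than in P635L_Ctr. Their summed level was 775 to 1172 CPM in WT_Ctr, 1354 to 2016 CPM in P635L_Ctr, 882 to 1418 CPM in P635L_Tnpo3 and 876 to 1002 CPM in WT_Tnpo3, with 0 of the 6 at 0 in every library. Their part in the Rtn4 and Lrrfip1 results was not tested. In bulk tissue, fewer cells of a type and less RNA per cell cannot be told apart.

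Over the 16 libraries the log2 CPM of Rtn4 correlated best, among 12490 genes, with Foxs1 (Pearson r = 0.957), Meox1 (0.957) and Phlda3 (0.947). These are descriptions over libraries that share depth and groups. Of 9 listed reticulons, atlastins, Nogo receptors and the reticulon-like Reep5, 1 passed in P635L_Ctr against WT_Ctr and 4 had an unadjusted edgeR p under 0.05. The 1 that passed, Rtn2, a reticulon abundant in striated muscle, fell by 0.72 on the log2 scale (SE 0.15, edgeR adjusted p = 0.00299). With the Tnpo3 virus 0 of the 9 passed in edgeR in either genotype, with 2 at an unadjusted p under 0.05 in P635L hearts and 0 in WT hearts.

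Lrrfip1 (ENSMUSG00000026305, chr1:90926459-91056666, plus strand) encodes a protein with a coiled coil that binds Flightless-1 and nucleic acids. It was at 116, 108, 143 and 110 CPM in WT_Ctr and at 198, 188, 187 and 149 CPM in P635L_Ctr, without overlap. P635L_Tnpo3 hearts held 152, 169, 136 and 156 CPM and overlapped both. The log2 fold change in P635L_Ctr was 0.60 (SE 0.15, edgeR adjusted p = 0.00900). Without WT_Ctr replicates 2 and 4 and WT_Tnpo3 replicate 4, the libraries rich in ENSMUSG00000119584, it was 0.51 and the call was lost (edgeR adjusted p = 0.0654). The change with the Tnpo3 virus in mutant hearts was -0.24 (SE 0.14, edgeR adjusted p = 0.410). Its paralog Lrrfip2 and its partner Flii did not pass in any contrast.

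Mlip (ENSMUSG00000032355, chr9:77009363-77260251, minus strand) encodes a protein of striated muscle that interacts with lamin A/C at the nuclear envelope. It was at 96.7, 102, 100 and 87.0 CPM in WT_Ctr and at 57.0, 64.4, 67.5 and 72.9 CPM in P635L_Ctr, without overlap. In P635L_Tnpo3 it was 70.9, 68.7, 74.4 and 68.2 CPM, again below every WT_Ctr heart. The log2 fold change was -0.56 in P635L_Ctr (SE 0.12, edgeR adjusted p = 0.00408), past the threshold in 16 of 16 alternatives. In P635L_Tnpo3 against WT_Ctr it was -0.45 (SE 0.12, edgeR adjusted p = 0.0499), a call at the threshold that was lost in 12 of 16 alternatives (adjusted p 0.0122 to 0.158). Those that left out 1 mouse were without WT_Ctr replicate 1, 2 or 3 (-0.45, -0.40 and -0.43) or P635L_Tnpo3 replicate 1, 2, 3 or 4 (-0.45, -0.40, -0.48 and -0.43). Between the mutant groups it was 0.11 (SE 0.12, edgeR adjusted p = 0.702).

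Among 12490 genes the profile of Mlip over the 16 libraries was most like those of Ldhb (Pearson r = 0.962), Dolk (0.959) and Gm5514 (0.956). Its partner Lmna did not pass in any contrast.

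Lmo7 (ENSMUSG00000033060, chr14:101967393-102172146, plus strand) encodes a LIM domain protein that binds emerin and afadin. It was at 261, 273, 385 and 383 CPM in WT_Ctr and 240, 239, 272 and 219 CPM in P635L_Ctr, so that WT_Ctr replicates 3 and 4 lay far above the mutants and WT_Ctr replicates 1 and 2 near them. The log2 difference of -0.42 (SE 0.14, edgeR adjusted p = 0.0441) was lost in 12 of 16 alternatives (adjusted p 0.0170 to 0.147). Among them were those without WT_Ctr replicate 3 (-0.33), WT_Ctr replicate 4 (-0.34) and P635L_Ctr replicate 1 (-0.40), 2 (-0.40) or 4 (-0.37). Without the libraries high in Xist the difference was -0.30 (edgeR adjusted p = 0.147). Its paralog Limch1 fell by 0.63 in P635L_Ctr (SE 0.13, edgeR adjusted p = 0.00251) and by 0.52 in P635L_Tnpo3 (SE 0.13, edgeR adjusted p = 0.0337), both against WT_Ctr.

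The other 5 genes did not pass in any contrast, and 0 of them had an unadjusted edgeR p under 0.05. Nexn (ENSMUSG00000039103, chr3:151942619-151971987, minus strand), which encodes the actin-binding nexilin, differed by -0.27 (SE 0.17) between P635L_Ctr and WT_Ctr. Immt (ENSMUSG00000052337, chr6:71808315-71854372, plus strand), which encodes the core protein of the mitochondrial cristae junction complex, differed by -0.15 (SE 0.17). Git2 (ENSMUSG00000041890, chr5:114865468-114913578, minus strand), which encodes an adaptor that activates the GTPase of ARF proteins, differed by -0.16 (SE 0.13). Fnbp1 (ENSMUSG00000075415, chr2:30916218-31032020, minus strand), which encodes a membrane-bending F-BAR protein, differed by -0.08 (SE 0.12). Dst (ENSMUSG00000026131, chr1:33947306-34347742, plus strand), which encodes the cytoskeletal linker dystonin, differed by -0.35 (SE 0.32).

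Dst had the widest spread of the 9. It was at 642, 776 and 828 CPM in the 3 WT libraries rich in ENSMUSG00000119584 and at 276 to 423 CPM in the other 5 WT libraries. Without those 3 libraries its log2 fold change in P635L_Ctr was 0.26 (edgeR adjusted p = 0.330), of the opposite sign. Reads of Rtn4, Dst and Immt could include those of genes that overlap them on the other strand, since whether the counting used strand is not given in the sources used here. The most abundant such gene, Eml6, was at 3.5 CPM beside 108 CPM for Rtn4. Nexn shares exon bases on its own strand with Gm43185, which was at 29.4 CPM beside 781 CPM for Nexn.

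**Figure D2:**
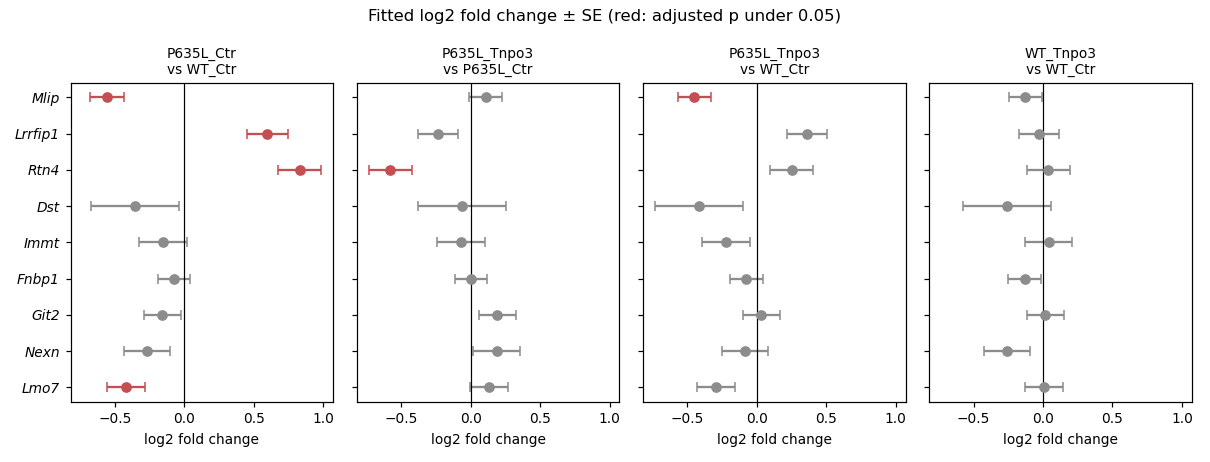
Fitted log2 fold change (x axis) with its SE for each gene (y axis) in 4 contrasts, red where the edgeR adjusted p was under 0.05. Rtn4 is at 0.83 in P635L_Ctr against WT_Ctr and at -0.58 in P635L_Tnpo3 against P635L_Ctr, and the WT_Tnpo3 panel holds 0 red points.

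Of 38 listed paralogs and partners of the 9 genes, 2 rose and 4 fell in P635L_Ctr against WT_Ctr, with a median log2 fold change of -0.11. This share of 15.8% is near the 14.2% of all genes tested. Ankrd1, a stress-responsive ankyrin repeat protein of the cardiomyocyte, rose by 2.35 (SE 0.33, edgeR adjusted p = 0.000145). Arhgef7, which encodes the exchange factor beta-PIX that binds Git proteins, rose by 0.31 (SE 0.10, edgeR adjusted p = 0.0363) and was lower again in P635L_Tnpo3 than in P635L_Ctr (log2 fold change -0.38, SE 0.10, edgeR adjusted p = 0.0335). Besides Rtn2 and Limch1, the desmosomal plakin Dsp fell by 0.66 (SE 0.21, edgeR adjusted p = 0.0411) and the F-BAR gene Trip10 by 0.44 (SE 0.12, edgeR adjusted p = 0.0164). Of 8 listed partners of Immt at the cristae junction 0 passed in edgeR, 2 had an unadjusted p under 0.05, and the median log2 fold change was -0.20.

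Splicing was read from junction reads. An event was called where the authors' deposited table gave an rMATS false discovery rate (FDR) under 0.05, the inclusion levels differed by 0.1 or more, and each group had a mean of 10 or more junction reads per library. Between P635L_Ctr and WT_Ctr, 12 of the 193 events of the 9 genes with enough reads were called, 9 toward higher and 3 toward lower inclusion in the mutant, against a background of 2.52% of events (1.06% higher and 1.46% lower). Mlip held 8 of the 12, Nexn 2, Lrrfip1 1 and Rtn4 1, so 4 of the 9 genes had a call, where 8.11% of all genes with events did. That share is not matched for the number of events per gene. The 9 genes held 193 events with enough reads and all 8287 genes held 34810. On average the 9 genes thus had more chances of a call. Dst, Immt, Fnbp1 and Git2 had 0 called events in every comparison, and Lmo7 had 0 in the mutant ones.

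In P635L_Tnpo3 against WT_Ctr 2 of 200 events were called, both in Mlip (background 2.12%), and 1 of the 9 genes had a call (background 7.49%). In WT_Tnpo3 against WT_Ctr 5 of 172 were called, 3 in Lrrfip1, 1 in Rtn4 and 1 in Lmo7 (background 0.941%), so 3 of the 9 genes had a call (background 3.35%). The backgrounds per gene are again not matched for the number of events per gene. With 1 heart left out the count of called events in P635L_Tnpo3 was 1 without the second listed WT_Ctr heart or the first, the third or the fourth listed P635L_Tnpo3 heart. In WT_Tnpo3 it was 3 without the first listed WT_Ctr heart, 3 without the third WT_Tnpo3 heart and 2 without the fourth. All 3 tables share the WT_Ctr libraries. Among 30 other listed RBM20 targets, 16 of the 29 with events had a call in P635L_Ctr, 11 in P635L_Tnpo3 and 2 in WT_Tnpo3. In P635L_Ctr the largest called difference there was 0.937 in Ttn, the gene of the giant spring protein titin, where the largest among the 9 genes was 0.31 in Mlip.

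A limma test over mice, with Benjamini-Hochberg adjustment over all events, called 0 events of the 9 genes in any comparison. In P635L_Ctr against WT_Ctr 39 of 193 events had an unadjusted limma p under 0.05, with a smallest adjusted p of 0.169, and limma called 45 events over all genes (background 0.129%). An unadjusted limma p under 0.05 was also reached by 26 of 200 events in P635L_Tnpo3 against WT_Ctr. It was reached by 20 of 136 in P635L_Tnpo3 against P635L_Ctr and by 19 of 172 in WT_Tnpo3 against WT_Ctr. Over all genes limma called 0.0231%, 0.0853% and 0% of events in these comparisons, in that order. Those shares count calls after adjustment and are no background for the unadjusted counts, for which none is given here. The calls below therefore rest on the authors' rMATS FDR and not on limma. Exact two-sided permutation tests of 59 comparisons of named events cannot go below p = 0.0286, and the smallest adjusted value was 0.0992. The named events were chosen because rMATS called them on these same hearts, so the exact tests are no independent support for those calls. Comparisons of P635L_Tnpo3 with P635L_Ctr reuse P635L_Ctr hearts behind many of the calls and are not independent of that choice either. Within a group the tables name no library, so hearts are given here in listed order and were not matched to the replicates above.

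**Figure D3:**
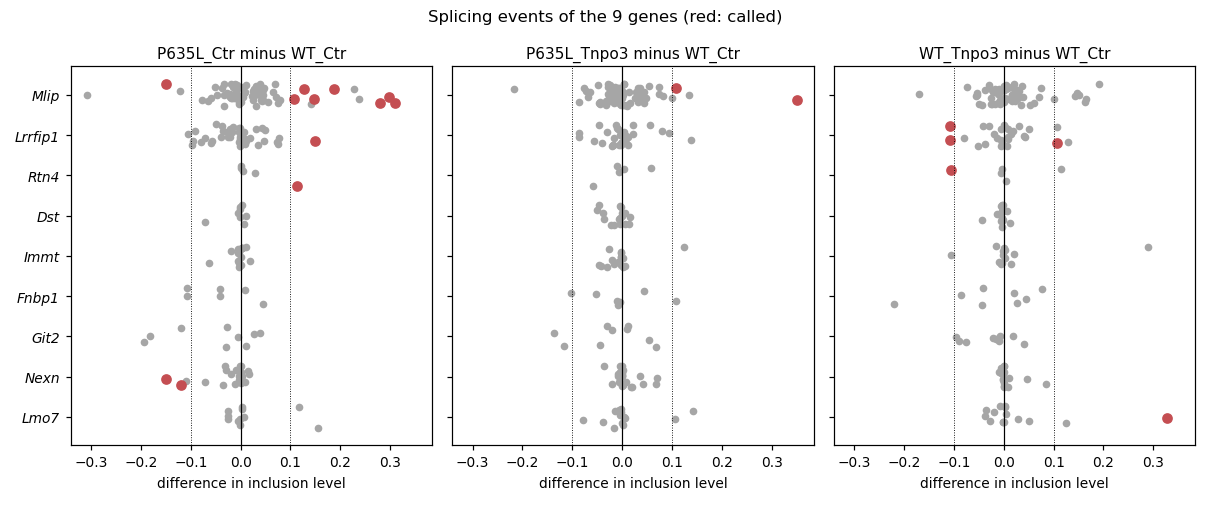
Difference in inclusion level from WT_Ctr (x axis) for each event with enough reads, by gene (y axis, scattered within a row), with red points for called events and dotted lines at a difference of 0.1. Mlip holds 8 of 12 called events in P635L_Ctr and 2 of 2 in P635L_Tnpo3, and Dst, Immt, Fnbp1 and Git2 hold none.

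The exon of 72 bases in Mlip showed the largest called difference of the mutant comparison, with 1 of its pairs of flanking exons, chr9:77009363-77009675 and chr9:77146674-77147066. With that pair its inclusion level was 0.587, 0.803, 0.610 and 0.595 in WT_Ctr and 1, 1, 1 and 0.837 in P635L_Ctr, without overlap. In P635L_Tnpo3 it was 0.769, 0.692, 0.547 and 0.492, below every P635L_Ctr heart and overlapping WT_Ctr. In WT_Tnpo3 it was 0.537, 0.637, 0.40 and 0.335. The mean rose by 0.311 in P635L_Ctr (SE 0.0658), with an rMATS FDR of 8.95e-11 in the authors' deposited table. P635L_Tnpo3 minus P635L_Ctr was -0.334 (SE 0.0758, exact p = 0.0286, adjusted 0.0992, limma adjusted p = 0.270), and P635L_Tnpo3 minus WT_Ctr was -0.0238 (SE 0.0822).

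The rise did not extend to every pair of flanks of that Mlip exon. Of 9 pairs with enough reads in P635L_Ctr against WT_Ctr, 1 was called, and the differences ran from -0.308 to 0.31, from WT_Ctr means of 0.185 to 1.0. The lowest came from the same first flank with a distant second one (chr9:77254977-77255083), where the mean was 0.728 in WT_Ctr and 0.420 in P635L_Ctr, on 13.5 and 14.75 reads per library (rMATS FDR 0.0573 in the authors' deposited table). With the pair that had the most reads in WT_Ctr, 189 per library, it was 0.440 and 0.479 (FDR 1.0 in that table). A pair with an FDR of 0.0434 there had a difference of 0.07, under the 0.1 limit.

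The junction that skips the Mlip exon of 72 bases in the called event joins chr9:77009363-77009675 and chr9:77146674-77147066. It had 17, 4, 12 and 7 reads in WT_Ctr and 0, 0, 0 and 2 reads in P635L_Ctr. It had 4, 7, 6 and 15 reads in P635L_Tnpo3. The same junction counts as skipping for the exon of 45 bases at chr9:77081241-77081285, with identical skipping reads in 16 of 16 libraries, so these results are not independent. With that pair of flanks the exon of 45 bases was at 0.077, 0, 0.293 and 0.289 in WT_Ctr and at 0.587, 0.549, 0.606 and 0.321 in P635L_Tnpo3, and was called there (difference 0.351, SE 0.0996, rMATS FDR 0.0191 in the authors' deposited table). In P635L_Ctr it had 5.5 junction reads per library, too few for a call, and levels of 1, 1 and 0.796 in the 3 hearts with reads. The called event had 13.25 junction reads per library in WT_Ctr and 18.75 in P635L_Tnpo3. With other, deeper pairs the same exon was included nearly throughout. Over 533 reads per WT_Ctr library its mean was 0.997 in WT_Ctr and 0.998 in P635L_Tnpo3, and over 186 reads it was 0.959 and 0.994.

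The second Mlip exon of 45 bases, at chr9:77088634-77088678, was called with 1 of 3 pairs of flanks in P635L_Ctr. With that pair it was at 0.890, 0.766, 0.901 and 0.855 in WT_Ctr. In P635L_Ctr it was at 1 in 4 of 4 hearts, with 0 skipping reads among 26 to 54 junction reads per heart, where WT_Ctr had 3 to 8 skipping reads. In P635L_Tnpo3 it was at 1, 0.845, 1 and 1. It was called in both mutant groups, with rMATS FDR values of 3.11e-06 and 0.000333 in the authors' deposited tables. It was at 0.947, 0.865, 1 and 1 in WT_Tnpo3, and the difference of 0.10 from WT_Ctr was not called. The difference between the mutant groups was -0.0388 (SE 0.0388, exact p = 1.0). With the other 2 pairs its mean in WT_Ctr was 0.988 and 0.998, and P635L_Ctr differed by 0.006 and -0.011.

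The Mlip exon of 60 bases was measured with 3 pairs of flanking exons in P635L_Ctr, of which 2 were called. With the nearer flank it was at 0.570, 0.527, 0.562 and 0.630 in WT_Ctr and 0.742, 0.710, 0.710 and 0.637 in P635L_Ctr, without overlap (difference 0.128, SE 0.0309, rMATS FDR 0.00399 in the authors' deposited table). P635L_Tnpo3 lay between at 0.749, 0.577, 0.653 and 0.606 and overlapped both. With the farther flank its mean went from 0.343 to 0.531, and that event is listed for P635L_Ctr only. With the third pair it went from 0.821 to 0.865 and was not called (rMATS FDR 1.0 in the authors' deposited table).

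A long Mlip exon with alternative ends gave calls at 1470 and 1545 bases, with identical skipping reads in 16 of 16 libraries. Both were called with 1 of 3 pairs of flanks, the one with the exon of 72 bases. At 1470 bases its inclusion with that pair was 0.289, 0.140, 0.388 and 0.607 in WT_Ctr and 0.745, 0.501, 0.519 and 0.777 in P635L_Ctr, and the groups overlapped. P635L_Tnpo3 hearts were at 0.476, 0.417, 0.616 and 0.312 and WT_Tnpo3 hearts at 0.512, 0.423, 0.448 and 0.700. The difference of 0.280 in P635L_Ctr (SE 0.122) had an exact p of 0.0857. With the other 2 pairs the means were 0.10 in both WT_Ctr and P635L_Ctr, over 99.75 and 126 reads per library, and 0.0388 in WT_Ctr and 0.0825 in P635L_Ctr (rMATS FDR 1.0 and 0.00809 in the authors' deposited table). The neighbouring exon of 393 bases, called with 1 of 8 pairs, was with that pair at 0.764, 0.729, 0.804 and 0.773 in WT_Ctr and at 0.812, 0.894, 0.870 and 0.921 in P635L_Ctr, without overlap, with a difference of 0.107 (SE 0.0279). Its other pairs went in both directions. Of the 8 pairs 2 were higher and 2 lower at an rMATS FDR under 0.05 in the authors' deposited table, and the lowest went from 0.940 to 0.874 (FDR 0.0234). The remaining Mlip call, the 1 toward lower inclusion, was a pair of mutually exclusive exons (mean 0.562 in WT_Ctr and 0.412 in P635L_Ctr) for which the table lists only part of the coordinates.

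Nexn showed the reverse direction, on the deepest counts of the set. With 1 of its 2 pairs of flanks its exon of 189 bases was at 0.515, 0.628, 0.573 and 0.579 in WT_Ctr and at 0.465, 0.358, 0.471 and 0.399 in P635L_Ctr, all 4 below all 4, over 1613 to 4635 junction reads per library. The mean fell by 0.151 (SE 0.0357, exact p = 0.0286, adjusted 0.0992), with an rMATS FDR of 6.91e-07 in the authors' deposited table. Reads that skip it cross 1 junction, 418 to 587 of them in WT_Ctr and 698 to 2189 in P635L_Ctr, and the other called Nexn event counts the same skipping reads in 8 of 8 libraries. With the other pair its mean was 1.0 in WT_Ctr and 0.9995 in P635L_Ctr. The called event is listed for P635L_Ctr only. With 2 other pairs, read in P635L_Tnpo3, the exon was at a mean of 0.997 and 0.982, beside 0.995 and 0.990 in WT_Ctr, and neither was called.

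In Lrrfip1 the exon of 78 bases at chr1:91021282-91021359 was called in P635L_Ctr with 1 of 2 pairs of flanks. With that pair its inclusion was 0.792, 0.618, 0.732 and 0.734 in WT_Ctr and 0.908, 0.865, 0.878 and 0.822 in P635L_Ctr, without overlap (difference 0.149, SE 0.0406, rMATS FDR 0.00455 in the authors' deposited table). P635L_Tnpo3 was at 0.714, 0.946, 0.947 and 0.824, with a wider spread. Its mean differed from P635L_Ctr by -0.0105 (SE 0.0587, exact p = 0.857). Against WT_Ctr it missed the call at an FDR of 0.0504 in the authors' deposited table. With the second pair the mean was 1.0 in WT_Ctr and 0.974 in P635L_Ctr.

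The other 3 Lrrfip1 calls came from WT_Tnpo3. One was a pair of mutually exclusive exons, listed with part of its coordinates (mean 0.0223 in WT_Ctr and 0.128 in WT_Tnpo3). An exon of 66 bases (chr1:91014781-91014846) and one of 78 bases (chr1:91016356-91016433) share the skipping junction in 16 of 16 libraries, and were called with 1 of 2 and 1 of 3 pairs of flanks. With its second pair, on 102 reads per WT_Ctr library, the former went from 0.787 to 0.827 in WT_Tnpo3 and was not called. With the called pairs the values were as follows. The former was at 1, 1, 0.976 and 1 in WT_Ctr and at 0.918, 0.966, 0.802 and 0.862 in WT_Tnpo3, over 14 to 66 junction reads per WT_Ctr library, with an rMATS FDR of 0.0291 in the authors' deposited table. The exon of 78 bases went from a mean of 0.993 to 0.886. Both calls rest on few reads of the shared skipping junction. It had 0, 0, 1 and 0 reads in WT_Ctr and 1, 1, 4 and 4 in WT_Tnpo3. In P635L_Ctr it had 4, 6, 4 and 4 reads, and in P635L_Tnpo3 1, 0, 0 and 2. The former was at 0.916, 0.919, 0.917 and 0.939 in P635L_Ctr, below every WT_Ctr heart, where the difference of -0.0713 (SE 0.00811) was under the 0.1 limit. In P635L_Tnpo3 it was at 0.968, 1, 1 and 0.959, above every P635L_Ctr heart. On the log2 read ratio its interaction of virus and genotype was 3.45 (SE 0.89, limma adjusted p = 0.324 over 25400 events), the smallest adjusted p among 128 events of the 9 genes. Of those 128 events 14 had an unadjusted limma p under 0.05. After adjustment 0 passed, where 0.00787% of all events did.

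Rtn4 and Lmo7 each had 1 pair of flanks per exon. In Rtn4 the very long exon of 2361 bases, which distinguishes the Nogo-A isoform, was called in P635L_Ctr although the groups overlapped. Inclusion, measured against the exon of 57 bases upstream, was 0.639, 0.939, 0.949 and 0.736 in WT_Ctr and 0.938, 0.940, 0.896 and 0.943 in P635L_Ctr (difference 0.114, SE 0.0775, exact p = 0.371, rMATS FDR 0.0409 in the authors' deposited table). WT_Tnpo3 hearts were at 1, 0.826, 0.895 and 1. Their difference of 0.115 from WT_Ctr was of like size but was not called (rMATS FDR 0.197 in the authors' deposited table). In P635L_Tnpo3 the exon was at 0.908, 0.957, 0.709 and 0.921, and its difference of 0.058 from WT_Ctr was not called. Reads across its junctions numbered 46, 31, 37 and 39 in WT_Ctr and 180, 407, 86 and 200 in P635L_Ctr, beside library totals of 28493249 to 40610576 counts in WT_Ctr and 37803840 to 85922669 in P635L_Ctr and the higher level of Rtn4 there. The skipping junction had 13, 1, 1 and 7 reads in WT_Ctr and 6, 13, 5 and 6 in P635L_Ctr.

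The Rtn4 exon of 57 bases was mostly skipped among transcripts that use its listed pair of flanks. Its share over all Rtn4 transcripts, including those that join it to the very long exon, was not measured. With the listed pair the exon was at 0.217, 0.020, 0.137 and 0.222 in WT_Ctr and at 0.010, 0.067, 0.066 and 0.034 in WT_Tnpo3. That event was called (difference -0.105, SE 0.0492, exact p = 0.114, rMATS FDR 0.00338 in the authors' deposited table), although the second WT_Ctr heart lay within the WT_Tnpo3 range. It was at 0.158, 0.154, 0.206 and 0.190 in P635L_Ctr and at 0.073, 0.038, 0.152 and 0.099 in P635L_Tnpo3, all 4 below all 4, with a difference of -0.0865 (SE 0.0271, exact p = 0.0286, adjusted 0.0992, limma adjusted p = 0.434).

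The Lmo7 exon of 57 bases was called in WT_Tnpo3. It was at 0.299, 0.441, 0.388 and 0.356 in WT_Ctr and at 0.480, 0.568, 0.947 and 0.798 in WT_Tnpo3, without overlap (difference 0.327, SE 0.111, rMATS FDR 0.0185 in the authors' deposited table). Levels were 0.568, 0.402, 0.55 and 0.435 in P635L_Ctr and 0.281, 0.622, 0.385 and 0.614 in P635L_Tnpo3. Neither mutant group was called, with differences of 0.118 (SE 0.0509) and 0.105 (SE 0.0900) from WT_Ctr. The limma adjusted p in WT_Tnpo3 was 0.602.

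**Figure D4:**
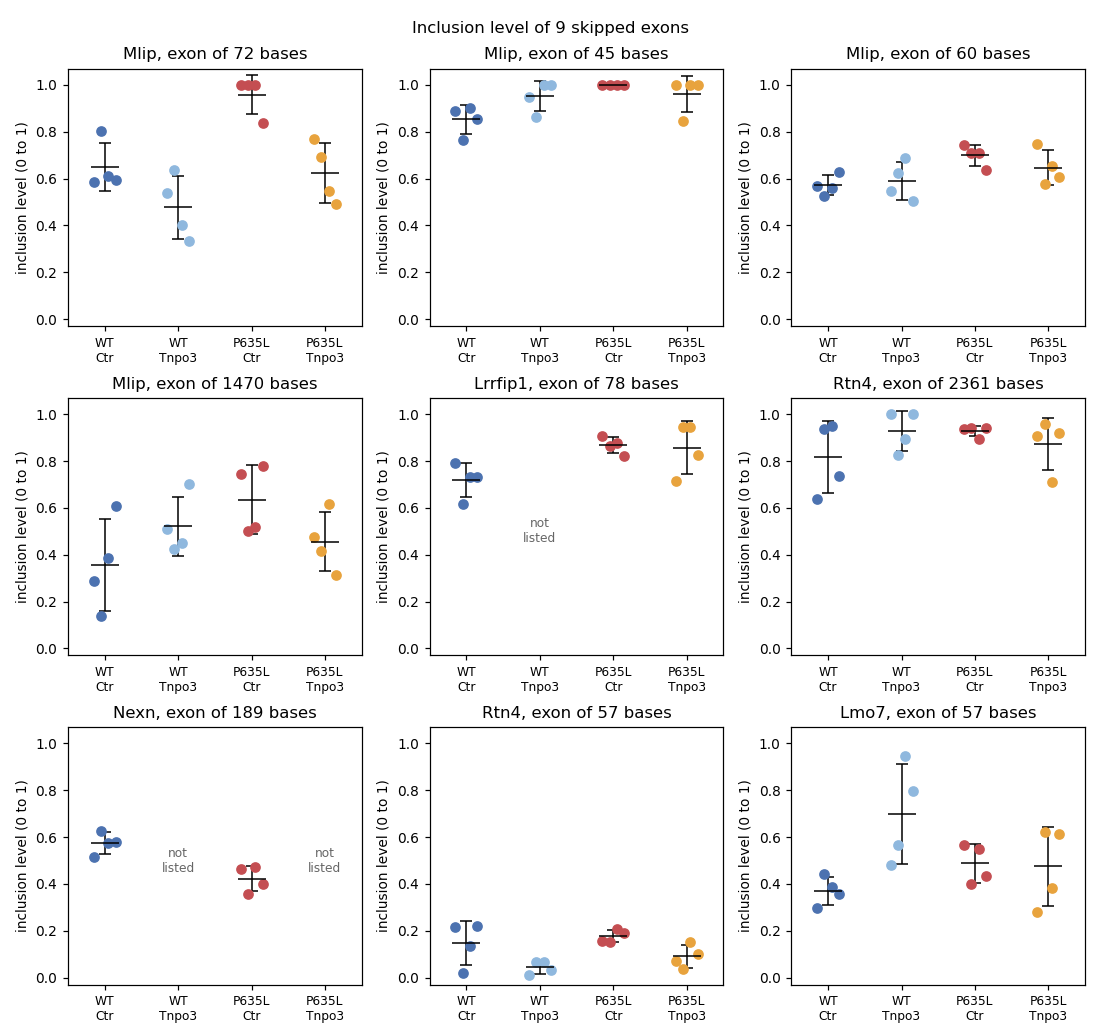
Inclusion level (y axis, 0 to 1) of 9 exons, each with 1 pair of flanking exons, in the 4 hearts of each group (points, in listed order), with the mean and SD (black). The Mlip exon of 72 bases stands at 0.837 to 1 in P635L_Ctr and at 0.492 to 0.769 in P635L_Tnpo3, and the Nexn exon of 189 bases is lower in P635L_Ctr than in WT_Ctr.

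In the 4 genes without a call, evaluated events ranged as follows between P635L_Ctr and WT_Ctr. Dst ran from -0.071 to 0.011 over 8 events and Immt from -0.064 to 0.018 over 16 events. Git2 ran from -0.193 to 0.038 over 9 events and Fnbp1 from -0.107 to 0.044 over 6 events, on few reads (medians of 38.5 and 18.8 junction reads per WT_Ctr library). In Git2 3 events and in Fnbp1 2 events passed the limit of 0.1 without an rMATS FDR under 0.05 in the authors' deposited table.

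The called exons of the 9 genes had lengths that are multiples of 3, which leave the reading frame as it is. In P635L_Ctr this held for 11 of 11 called skipped exon events (background of calls 2.39%). It held for 83.2% of all 137 evaluated skipped exon events of the 9 genes and for 41.1% of evaluated events over all genes. Among called events over all genes it held for 48.7%. Several of the 11 overlap or share reads, as described above.

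The authors' deposited differential expression tables, made with DESeq2, called 3 of the 9 genes in P635L_Ctr against WT_Ctr, namely Mlip, Lrrfip1 and Rtn4, with an adjusted p of 0.0606 for Lmo7. They called Mlip and Lrrfip1 in P635L_Tnpo3 against WT_Ctr and 0 of the 9 in WT_Tnpo3.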

How the data were processed

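Per the submitters' processing notes, reads were aligned with STAR 2.7.9a to GRCm39 and counted with featureCounts 2.0.6. The authors deposited raw counts per gene for 16 libraries of polyadenylated RNA. The rMATS tables, per the file headers, hold junction reads, inclusion levels, p-values, FDR and an inclusion level difference, a score written as WT_Ctr minus the other group, whose sign was turned here. The plain ratio of inclusion to skipping reads was 1.41 to 2.00 times the one behind the levels, by exon length, so the levels are corrected for length. The authors' DESeq2 tables give log2 ratios and their p-values. The version of rMATS is not given in the sources used here.

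Gene tests used edgeR 4.0.16 under R 4.3.3 (quasi-likelihood, TMM factors, filterByExpr, all 16 libraries, 1 mean per group, two-sided, Benjamini-Hochberg over 18662 genes). CPM use TMM factors. Events were tested with limma 3.58.1 on log2 read ratios (pseudocount 0.5, precision weights), adjusted over all events. Both tests were checked on simulated data. P635L_Tnpo3 and P635L_Ctr were joined through events in both tables. Events with repeated keys were left out of joins. The second called Nexn event is counted but not reported here. All 9 genes were named, and events were named if called by the rMATS rule in any table. For Rtn4 and Mlip, which had the smallest adjusted p, the 3 most correlated genes were named. Alternatives covered scaling, filters, DESeq2 1.42.0, replicate block and left-out libraries. The genes and lists were chosen with earlier results of these data known. Each library is 1 mouse per the labels. Depth limits precision where junction reads are few, and spread was taken over mice.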

Additional observations from a re-analysis of the deposited data

Results flagged for a closer look

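In 11 of 99 groups of 4 values, 1 value stood apart from the other 3 by Dixon's test, where chance alone gives about 1 in 20 groups. By expression these were Lrrfip1 in WT_Tnpo3 replicate 1 at 82.0 CPM, below 127 to 130 CPM in the other hearts of that group, and Dst in P635L_Ctr replicate 3 at 501 CPM, above 381 to 393 CPM.

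In Mlip the exon of 45 bases at chr9:77088634-77088678 was low at 0.845 in the second listed P635L_Tnpo3 heart. The exon of 60 bases with its farther flank was high at 0.433 in the fourth WT_Ctr heart. The exon of 72 bases was high at 0.803 in the second WT_Ctr heart and low at 0.837 in the fourth P635L_Ctr heart, and that of 393 bases was high at 0.891 in the fourth P635L_Tnpo3 heart.

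In Lrrfip1 the exon of 66 bases was low at 0.976 in the third WT_Ctr heart and high at 0.939 in the fourth P635L_Ctr heart, and that of 78 bases sharing its skipping junction was low at 0.972 in the third WT_Ctr heart. The Rtn4 exon of 2361 bases was low at 0.896 in the third P635L_Ctr heart. Where 3 of 4 inclusion levels are at 1, the remaining one is always marked by this test.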

How the results depend on the processing

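Of the 4 genes changed in P635L_Ctr, 2 (Mlip and Rtn4) remained without WT_Ctr replicates 2 and 4 and WT_Tnpo3 replicate 4, and 3 to 4 when 1 mouse was left out. For P635L_Tnpo3 against P635L_Ctr the count was 0 to 1 when 1 mouse was left out. For P635L_Tnpo3 against WT_Ctr it was 0 to 1 with 1 mouse left out, and 0 with median-ratio factors, with upper-quartile factors, with no filter and without the 3 libraries. WT_Tnpo3 and the interaction gave 0 under every alternative run. The labels do not say that replicate numbers pair the mice, and in no comparison were the correlations of same-numbered deviations over 0.1 for every number. They ran from -0.23 to 0.16 in the 3 comparisons with P635L groups and from 0.096 to 0.55 in WT_Tnpo3 against WT_Ctr, where 3 of 4 mice correlated best with their own number. With the replicate block the counts were 3 in P635L_Ctr, 1 between the mutant groups, and 0 in P635L_Tnpo3 or WT_Tnpo3 against WT_Ctr. In no comparison did every mouse correlate best with its own number.

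Called events in P635L_Ctr numbered 21 at a difference of at least 0.05 and 3 at 0.2, and 10 to 14 with 1 mouse left out. In P635L_Tnpo3 they numbered 5 at 0.05 and 1 at 0.2, at an FDR under 0.01 or with at least 20 reads, and 1 to 2 with 1 mouse left out. In WT_Tnpo3 they numbered 1 at 0.2 or at an FDR under 0.01, and 2 to 5 with 1 mouse left out. Left-out values keep the deposited FDR and recompute the difference. Limma gave 0 events of the 9 genes under every alternative run. Of single genes' fold changes 750 alternatives kept their side of the threshold, 31 lost it and 2, both for Dst, moved by more than the spread. Most of the 750 were for changes that were not called and had no call to lose. The 31 losses fell on called changes, each run under 16 alternatives. Lmo7 in P635L_Ctr and Mlip in P635L_Tnpo3, both against WT_Ctr, lost 12 each. Rtn4 between the mutant groups lost 6, Lrrfip1 in P635L_Ctr lost 1, and Mlip and Rtn4 in P635L_Ctr lost 0. All 472 alternatives for named events, each with 1 heart left out, stayed within the SD of the hearts from the main difference. Leaving out 1 heart cannot move a mean difference further than that SD, so this result was fixed in advance and says nothing about stability. Direction was checked only where the event was called in that comparison, and was kept there. Small uncalled differences could change sign. The cause of these changes was not tested.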
